A study of Mus musculus with 12 samples.

Results

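The genotype by activation interaction asks, gene by gene, whether the change in RNA that follows stimulation differed between CD8+ T cells with an intact Senp1 gene (WT) and cells in which it was deleted (CKO). It is the log2 response of CKO cells (48 h against 0 h) minus the log2 response of WT cells. A value above 0 means that the response was more positive in CKO, and a value below 0 that it was more negative. Of the 56691 gene IDs counted, the 15935 with enough counts were tested, all in 1 fit, and the interaction was called for 220 of them (edgeR quasi-likelihood test, Benjamini-Hochberg adjusted p under 0.05, two-sided). That is 1.38% of the genes tested. The interaction was above 0 for 97 genes (0.609%) and below 0 for 123 genes (0.772%), and 2045 genes had an unadjusted p under 0.05.

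The cells were naive CD8+ T cells from mouse spleen, in 4 groups of 3 libraries: unstimulated WT and unstimulated CKO cells (0 h), and WT and CKO cells after 48 h with antibodies to CD3 (5 µg/ml) and CD28 (1 µg/ml), which engage the T-cell receptor complex and a costimulatory receptor. The labels name neither the Cre line nor the deleted exons nor the age of the mice, and they do not say whether the 3 libraries of a group came from separate animals. The p-values below therefore measure the spread between these libraries, which may be technical. SENP1 is an enzyme that cuts SUMO, a small modifier protein, off its targets, many of them nuclear. On activation a naive CD8+ T cell leaves quiescence, copies its DNA and divides, changes how it uses sugar and fat, and gains effector functions.

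Library totals ran from 15900529 to 22427151 counts. Expression is printed in CPM, read counts relative to the normalized size of each library. The 7 CD8+ T-cell marker genes summed to 3530 to 3926 CPM in the 0 h libraries and 1529 to 1834 CPM in the 48 h libraries, and the interaction was called for none of them (edgeR, 4 of 7 at an unadjusted p under 0.05, 0 by DESeq2 and by limma voom). At 48 h the sum was 1756 to 1834 CPM in WT and 1529 to 1606 in CKO. There 2 of the 7 were called lower in CKO by edgeR, and 4.54% of all genes were called in either direction. RNA of other cells was present. The 20 B-cell markers summed to 1974 to 3656 CPM in WT at 0 h, with replicate 1 highest, and 1410 to 1656 CPM in CKO. Every WT library thus lay above every CKO library at 0 h. At 48 h the sum was 403.9 to 554.4 CPM. By edgeR 1 of the 20 was called at 0 h, lower in CKO, against 7.48% of all genes. At 0 h 14 had an unadjusted p under 0.05, and DESeq2 called 5 and limma voom 11. In bulk RNA, fewer cells of a type and less RNA per cell cannot be told apart.

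Senp1 itself was among the 220 genes, as its RNA was lower in CKO at both times but by unequal amounts. Senp1 (chromosome 15) read 83.9, 85.4 and 77.9 CPM in WT at 0 h, 56.5, 59.8 and 54.6 CPM in CKO at 0 h, 150.2, 170.8 and 163.9 CPM in WT at 48 h, and 70.0, 74.5 and 66.3 CPM in CKO at 48 h. All CKO libraries lay below all WT libraries of the same time. The RNA rose with stimulation in both genotypes, less in CKO (interaction -0.67 ± 0.10 log2, SE, edgeR adjusted p = 0.000926), so that CKO cells held 69.1% of the WT level at 0 h and 43.5% at 48 h. The counts sum the whole gene, so these shares do not measure how much of the deleted part was left.

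Since the interaction equals the genotype difference at 48 h minus that at 0 h, each called gene was placed by the time at which CKO and WT stood apart by the same test. The genotypes were apart at 0 h but not at 48 h for 103 of the 220 genes (0.646% of genes tested), of which 65 were higher and 38 lower in unstimulated CKO cells. They were apart at 48 h but not at 0 h for 72 genes (0.452%), of which 40 were higher and 32 lower in stimulated CKO cells. For 18 genes (0.113%) they were apart at both times in opposite directions, for 22 (0.138%) at both times in the same direction, and for 5 (0.0314%) at neither time. A genotype contrast that missed the threshold does not show that the genotypes were equal at that time. At 0 h the WT and CKO libraries did not overlap for 24.6% of all genes tested and 98.1% of those apart at 0 h. At 48 h they did not overlap for 23.7% of all genes tested and 100% of those apart at 48 h. The groups of genes were formed by these contrasts, so a lack of overlap adds no support to a call. The median size of the interaction was 0.734 log2 for the genes apart at 0 h, 0.767 for those apart at 48 h, 1.03 for the opposite group and 1.16 for the same-direction group.

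Most genotype differences came without a called interaction. CKO against WT was called for 1192 genes at 0 h (7.48% of genes tested), of which 143 had the interaction called, and for 724 genes at 48 h (4.54%), of which 112 did. The share with a called interaction was 11.2% of the 923 genes called at 0 h alone, 15.8% of the 455 called at 48 h alone and 14.9% of the 269 called at both times. These shares say nothing of the genes' biology by themselves, since a genotype call at 1 time and the interaction share libraries.

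**Figure D1:**
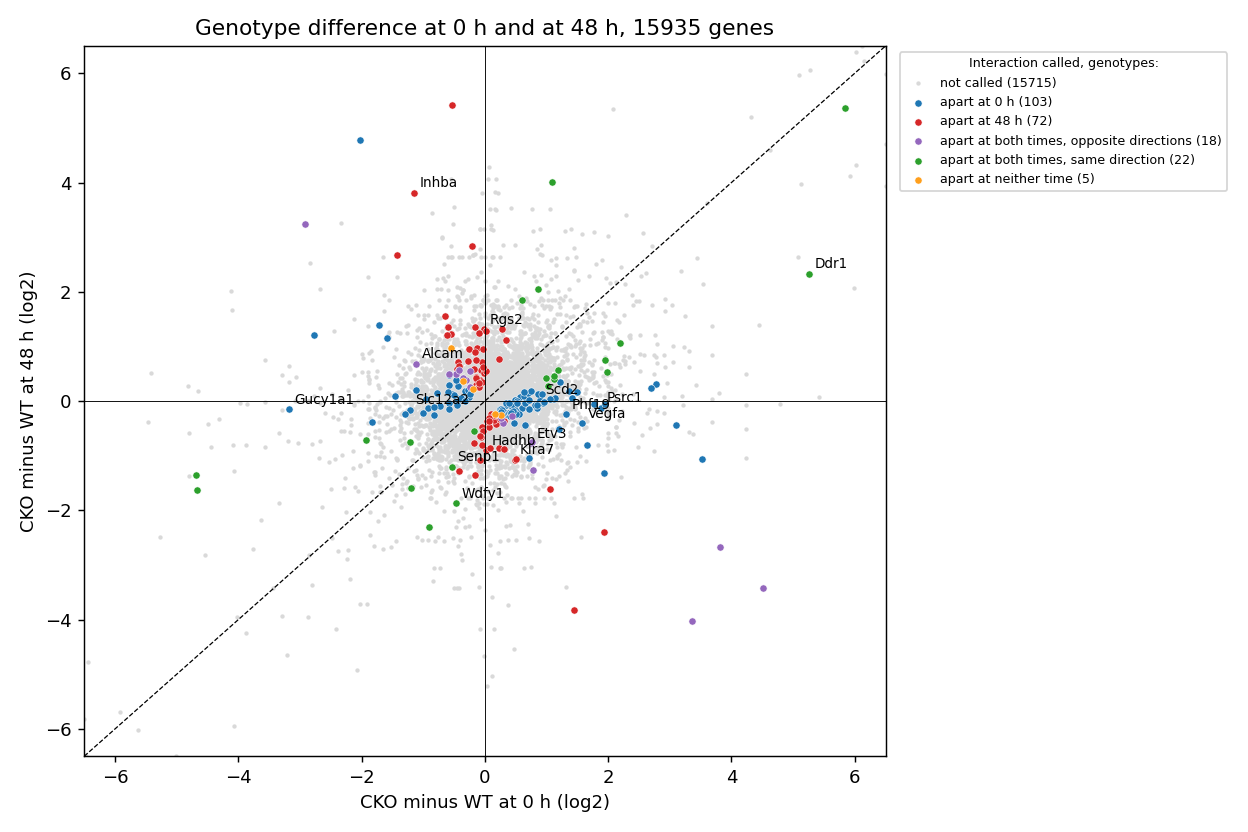
Genotype difference (CKO minus WT, log2) at 0 h on the x axis and at 48 h on the y axis for 15935 genes, each point 1 gene; the dashed line marks equal differences, that is, an interaction of 0. Coloured points are the 220 genes with a called interaction, coloured by the genotype contrasts that were called: 103 apart at 0 h, 72 at 48 h, 18 at both times in opposite directions, 22 in the same direction and 5 at neither time. Of the 103 and the 72, 24 and 14 lie off the axes, with differences of opposite sign of which neither was 2 times the other or more. Points that were not called and lie beyond the axis limits are drawn at the edge.

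Read as responses, the 220 genes mostly changed in the same direction in both genotypes. Stimulation changed 77.9% of genes in WT and 77.7% in CKO at the same threshold. Among the 220, 80 genes changed in the same direction with a larger change in CKO (43 rose and 37 fell), and 58 did so with a smaller change in CKO (43 rose and 15 fell). The response was called in 1 genotype alone for 58 genes. It was called in both with opposite signs for 24, of which 17 rose in WT and fell in CKO and 7 did the reverse.

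Of the genes apart at 48 h, Hadhb had the smallest p-value. Hadhb encodes the beta subunit of the mitochondrial trifunctional protein, which carries out the last steps of long-chain fatty acid oxidation. It read 84.0, 83.9 and 82.6 CPM in WT and 83.6, 87.9 and 82.4 CPM in CKO at 0 h, and 102.3, 97.2 and 98.4 CPM in WT and 50.8, 57.6 and 51.4 CPM in CKO at 48 h. The 0 h groups overlapped, and the 48 h groups did not. Hadhb rose in WT (0.25 ± 0.06 log2) and fell by 0.67 ± 0.06 in CKO, an interaction of -0.92 ± 0.09 (edgeR adjusted p = 2.03e-05), and CKO cells ended at 53.6% of the WT level. It was the 1 member of 24 fatty acid oxidation genes that was called (4.17%, against 1.38% of all genes).

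Other genes were called lower in CKO at 48 h and were not called at 0 h. Jaml encodes an adhesion and costimulatory receptor of the junctional adhesion family. It read 23.2, 27.5 and 22.1 CPM in WT and 30.1, 25.3 and 30.5 CPM in CKO at 0 h, and 113.8, 137.1 and 108.4 CPM in WT against 63.9, 68.9 and 65.8 CPM in CKO at 48 h. It rose in both genotypes, and the 48 h groups did not overlap (interaction -1.09 ± 0.14, edgeR adjusted p = 0.000358). Tceanc2 was at 30.1 ± 0.161 CPM (SD, n = 3) in WT and 11.8 ± 1.36 in CKO at 48 h, after 22.2 ± 1.35 and 19.9 ± 0.491 at 0 h, an interaction of -1.19 ± 0.14 (edgeR adjusted p = 0.000113). Pim2, a serine/threonine kinase induced by cytokine signals, rose from 92.6 ± 7.75 to 575.3 ± 53 CPM in WT and from 107.3 ± 3.5 to 433.5 ± 43.8 in CKO (interaction -0.62 ± 0.11, edgeR adjusted p = 0.00731). At 0 h neither the libraries of Tceanc2, lower in CKO, nor those of Pim2, higher in CKO, overlapped between the genotypes. Those 0 h differences missed the threshold (edgeR adjusted p = 0.404 and 0.137).

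Pdk1 and Bcl2l11 fell further in CKO than in WT. Pdk1, a kinase that holds back the use of pyruvate in mitochondria and a HIF-1 target, read 301.0, 308.0 and 296.4 CPM in WT and 347.1, 342.6 and 336.0 in CKO at 0 h, and 252.2, 260.0 and 264.8 CPM in WT and 199.0, 213.4 and 180.8 in CKO at 48 h. The groups did not overlap at either time, in opposite directions, but the 0 h difference missed the threshold (adjusted p = 0.079), and the interaction was -0.57 ± 0.09 (edgeR adjusted p = 0.00113). Bcl2l11, which encodes the pro-death protein BIM, went from 229.5 ± 11.1 to 85.6 ± 10.8 CPM in WT and from 262.8 ± 7.27 to 65.7 ± 4.66 in CKO (interaction -0.58 ± 0.11, edgeR adjusted p = 0.00909). Its 0 h libraries did not overlap between the genotypes, higher in CKO, but that difference was not called (edgeR adjusted p = 0.136). Mcl1, a survival protein of the same family, had an interaction of 0.37 ± 0.08 (edgeR adjusted p = 0.0285), with 508 ± 23 CPM in CKO and 424.1 ± 8.67 in WT at 48 h. Its call was lost in 7 of the 12 fits that each left out 1 library, with an adjusted p of up to 0.107. Bcl2l11 and Mcl1 were the 2 called members of 24 in the BCL-2 family list (8.33%, against 1.38% of all genes).

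Among genes called higher in CKO at 48 h and not called at 0 h were a signalling brake, a transcription factor subunit and a membrane protein. Rgs2 encodes a protein that switches off G-protein signals. It read 423.3, 419.8 and 425.1 CPM in WT and 410.2, 450.2 and 399.9 in CKO at 0 h, and fell to 14.3, 21.9 and 21.7 CPM in WT and 51.4, 47.5 and 45.7 in CKO at 48 h. Stimulation thus lowered Rgs2 in both genotypes, and CKO cells ended at 249% of the WT level (interaction 1.32 ± 0.16, edgeR adjusted p = 0.000577).

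Nfkb1, which encodes a precursor and subunit of NF-kappaB, read 275.9, 275.5 and 258.0 CPM in WT and 245.7, 268.0 and 257.9 CPM in CKO at 0 h, and 580.5, 576.4 and 589.1 CPM in WT and 926.7, 781.5 and 894.1 CPM in CKO at 48 h. It rose in both genotypes, and every CKO library exceeded every WT library at 48 h (interaction 0.64 ± 0.09, edgeR adjusted p = 0.000668). Marcks, an actin-binding substrate of protein kinase C at the membrane, rose from 9.06 ± 1.33 to 15.9 ± 2.02 CPM in WT and from 8.15 ± 1.31 to 40.6 ± 6.9 in CKO (interaction 1.51 ± 0.22, edgeR adjusted p = 0.000926). Otud1, a deubiquitinase, fell from 65.6 ± 6.12 to 6.39 ± 0.161 CPM in WT and from 60.3 ± 2.93 to 12.5 ± 0.874 in CKO (interaction 1.08 ± 0.13, edgeR adjusted p = 0.000139). Wiz, a zinc-finger protein of a histone methyltransferase complex, stayed between 41.9 and 51.0 CPM in the WT libraries of both times, and in CKO went from 44.7 ± 5.92 CPM at 0 h to 88.1 ± 3.76 at 48 h (interaction 0.98 ± 0.13, edgeR adjusted p = 0.000379).

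Inhba, which encodes the subunit of the secreted factor activin A, had the largest interaction of the genes named here with a level above 5 CPM. Its raw counts were 2, 5 and 8 in WT and 1, 2 and 3 in CKO at 0 h, 24, 16 and 41 in WT at 48 h, and 478, 181 and 391 in CKO at 48 h. The 48 h groups were far apart, while the 0 h counts were few. The interaction was 4.96 ± 1.04 (edgeR adjusted p = 0.0285), and CKO cells held 1410% of the WT level at 48 h. The call was lost in 7 of the 12 fits without 1 library, with an adjusted p of up to 0.182, and under limma voom (adjusted p = 0.258). Inhba was the 1 member of 29 cytokine genes that was called (3.45%, against 1.38% of all genes).

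**Figure D2:**
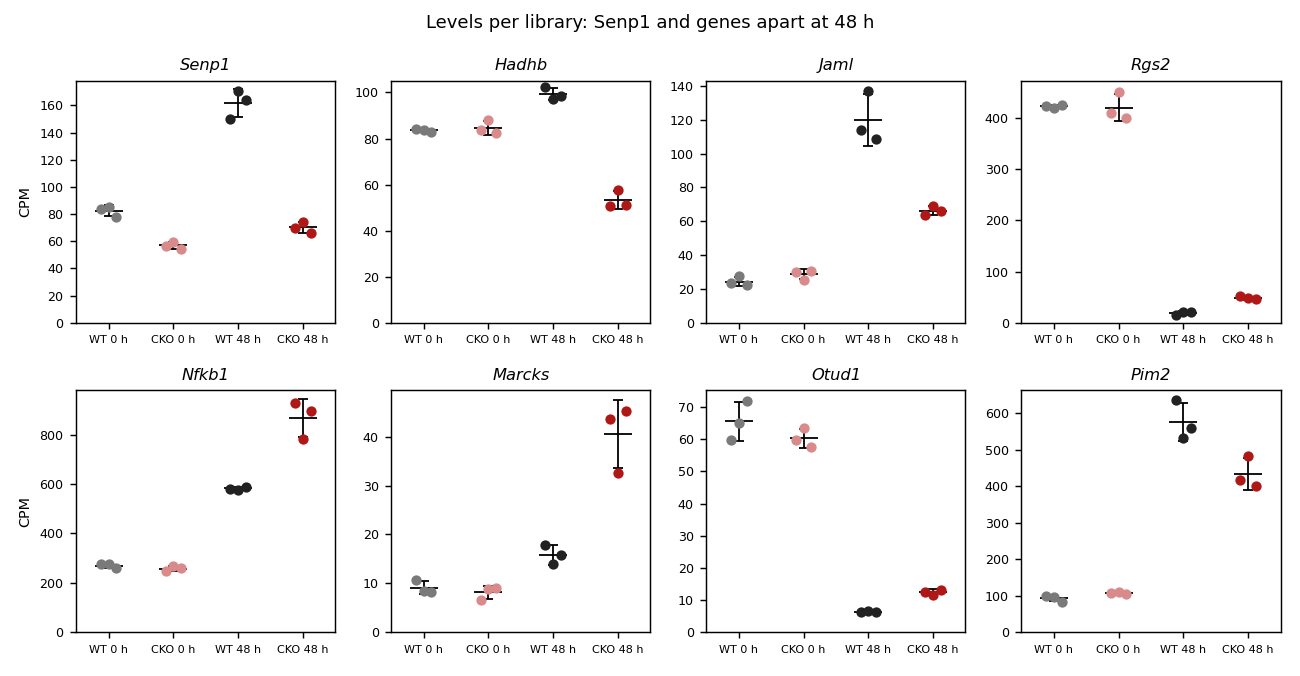
CPM per library (y axis, linear from 0) for Senp1 and 7 genes whose genotypes were apart at 48 h, in the 4 groups; points are libraries, bars the mean and SD of 3. Hadhb, Jaml and Pim2 were lower in CKO at 48 h, Rgs2, Nfkb1, Marcks and Otud1 higher, and for each of these 7 genes the 48 h groups do not overlap. That holds for all 72 genes apart at 48 h, which were chosen by that contrast, and for 23.7% of all genes tested.

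The genes apart at 0 h included a set that acts late in the cell cycle. The G2/M and spindle list held 44 genes, all tested, of which 5 had the interaction called (11.4%, against 1.38% of all genes), each through the 0 h level. The median interaction of the 44 was -0.55 log2, against -0.01 over all genes tested. Summed over the list, which was chosen with earlier results of these data known, levels were 477.1 ± 20.8 CPM in WT and 529.3 ± 30.2 in CKO at 0 h. At 48 h the sums were 6541 ± 331 and 6945 ± 193. The summed level was thus somewhat higher in CKO at both times, while the median counts low and high members alike. In unstimulated cells 12 of the 44 were called higher and 4 lower in CKO, against 7.48% of all genes called in either direction. That count of 16 was 21 by DESeq2, 7 by limma voom and 8 to 21 without 1 library at a time. At 48 h none of the 44 was called by edgeR (1 at an unadjusted p under 0.05, 0 by DESeq2 and 1 by limma voom). Levels at 0 h were low, and the calls moved with the test and the libraries: 11 of the 44 interactions were called by DESeq2, none by limma voom, 11 without WT replicate 1 at both times, and 0 to 9 without 1 library at a time.

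Kif18b, a kinesin that acts on spindle microtubules, read 0.573, 0.304 and 0.595 CPM in WT and 1.97, 1.45 and 1.58 CPM in CKO at 0 h, and 74.0, 79.3 and 76.1 CPM in WT and 75, 67.6 and 78.6 CPM in CKO at 48 h. The 0 h groups did not overlap and the 48 h groups did, so the rise was larger in WT (7.29 ± 0.15 log2) than in CKO (5.46 ± 0.12), an interaction of -1.83 ± 0.27 (edgeR adjusted p = 0.00098). Psrc1, a spindle protein, went from 0.355 ± 0.105 to 170.1 ± 7.65 CPM in WT and from 1.32 ± 0.231 to 156.7 ± 7.36 in CKO (interaction -2.01 ± 0.27, edgeR adjusted p = 0.000379). Pimreg, another gene of mitotic cells, had raw counts of 2, 2 and 1 in WT and 13, 10 and 10 in CKO at 0 h, and 418, 406 and 453 in WT and 489, 488 and 487 in CKO at 48 h (interaction -2.46 ± 0.42, edgeR adjusted p = 0.00399). Limma voom did not call these 3 genes (adjusted p = 0.0602 for Kif18b, 0.0518 for Psrc1 and 0.0862 for Pimreg). They are not members of the list and were taken by the size of their interaction.

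Of the 5 list members called, Cep55, Kif11 and Nuf2 had interactions below 0, and Aurka and Racgap1 (named for completeness, outside the rule for named genes) above 0. Cep55, which acts at the end of cell division, read 1.37, 1.52 and 1.19 CPM in WT and 2.27, 2.72 and 4.08 in CKO at 0 h and 77.3 ± 2.43 in WT and 80.8 ± 2.36 in CKO at 48 h (interaction -1.08 ± 0.22, edgeR adjusted p = 0.0144). Without WT 0 h replicate 3 or CKO 0 h replicate 3 its adjusted p was 0.0557 and 0.0587. Kif11, the kinesin that separates spindle poles, was at 4.13 ± 0.863 CPM in WT and 8.63 ± 1.98 in CKO at 0 h (interaction -1.01 ± 0.21, edgeR adjusted p = 0.0287), and Nuf2, a kinetochore protein, at 0.757 ± 0.102 and 1.48 ± 0.278 (interaction -0.97 ± 0.22, edgeR adjusted p = 0.0367). Aurka, a mitotic kinase, went the other way, at 6.8 ± 0.598 CPM in WT and 4.68 ± 0.637 in CKO at 0 h (interaction 0.67 ± 0.15, edgeR adjusted p = 0.0295). Leaving out 1 library at a time ended the call of Kif11 in 9 of 12 fits, of Nuf2 in 8 and of Aurka in 8, with adjusted p of up to 0.0854, 0.228 and 0.0966.

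Promoters of G2/M genes often carry CCAAT boxes and the CHR element TTTGAA, so the 100 bases before the start of these genes are shown for Psrc1, Kif18b and all 5 called list members, whether or not a motif was found. Cep55 had 2 start sites in the table and both windows are shown; of 2 overlapping windows of Psrc1, which held the same CCAAT, 1 is shown. The sequences are RefSeq's for GRCm38.p6, each on the gene's own strand, 5′ to 3′, with CCAAT and TTTGAA on either strand in capitals (ATTGG and TTCAAA where the match is on the other strand). They lie at chr3:108383704-108383803 for Psrc1, chr11:102925125-102925224 for Kif18b, chr19:38054941-38055040 and chr19:38054884-38054983 for Cep55, chr19:37376282-37376381 for Kif11, chr1:169531465-169531564 for Nuf2, chr2:172370571-172370670 for Aurka and chr15:99651657-99651756 for Racgap1.
Psrc1: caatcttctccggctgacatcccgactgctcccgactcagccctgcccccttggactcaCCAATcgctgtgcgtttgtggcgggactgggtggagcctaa
Kif18b: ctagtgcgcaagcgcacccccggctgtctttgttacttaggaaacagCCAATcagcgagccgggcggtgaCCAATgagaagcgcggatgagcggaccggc
Cep55, start 1: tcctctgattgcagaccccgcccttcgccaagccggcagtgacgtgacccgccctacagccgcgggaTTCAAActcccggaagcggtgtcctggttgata
Cep55, start 2: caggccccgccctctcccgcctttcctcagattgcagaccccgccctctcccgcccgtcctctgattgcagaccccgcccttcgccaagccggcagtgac
Kif11: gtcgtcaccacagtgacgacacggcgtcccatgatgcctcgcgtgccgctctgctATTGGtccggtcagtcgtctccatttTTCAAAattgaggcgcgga
Nuf2: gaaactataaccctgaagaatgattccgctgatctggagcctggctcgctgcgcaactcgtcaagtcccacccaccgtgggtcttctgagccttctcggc
Aurka: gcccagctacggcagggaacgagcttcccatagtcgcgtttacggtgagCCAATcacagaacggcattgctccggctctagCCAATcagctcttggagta
Racgap1: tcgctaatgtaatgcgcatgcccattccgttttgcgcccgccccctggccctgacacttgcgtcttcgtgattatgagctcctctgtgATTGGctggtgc

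Both Kif18b and Aurka held 2 CCAAT matches, Kif11 held 1 of each motif, Psrc1 and Racgap1 held CCAAT, and 1 of the 2 Cep55 windows held TTTGAA. The other Cep55 window and that of Nuf2, whose interaction was below 0, held neither. Over all 32851 promoter windows of this length in the table, 18.9% held CCAAT, 5.77% TTTGAA and 1.06% both. Of the G2/M list, 39 of 44 genes had a window, 25 with CCAAT and 10 with TTTGAA. These are counts of genes with a match in any of their windows, so they cannot be set directly against the shares of windows. Windows with a motif belonged to genes with interactions of both signs. A match describes these letters and is not a measured binding site.

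In the S-phase list 1 of 40 was called (2.5%, against 1.38% of all genes). It was E2f2, an E2F transcription factor, at 10.1 ± 2.45 CPM in WT and 16.7 ± 2.77 in CKO at 0 h (interaction -0.86 ± 0.19, edgeR adjusted p = 0.0285, lost in 6 of 12 fits without 1 library, up to 0.0949). The median interaction of that list was -0.05. Dbf4, the regulatory subunit of the kinase that fires replication origins, read 167.2, 166.0 and 175.1 CPM in WT and 113.0, 137.3 and 120.2 CPM in CKO at 0 h, and 119.3 ± 4.32 in WT and 124.7 ± 0.522 in CKO at 48 h. It fell in WT and was not called in CKO (interaction 0.52 ± 0.09, edgeR adjusted p = 0.00609). No G1 or cell-cycle brake gene of 23 was called by edgeR (9 at an unadjusted p under 0.05, 1 by DESeq2, 0 by limma voom). The smallest adjusted p there was that of Ccnd1, cyclin D1, at 0.0602, with 0.951 ± 0.222 CPM in WT and 2.58 ± 0.211 in CKO at 48 h.

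Of 31 genes of sterol and fatty acid synthesis 3 were called (9.68%, against 1.38% of all genes). They were Scd2, Cyp51 and Dhcr7, each apart at 0 h and each below 0, and the list's median interaction was -0.13. The count was 3 by DESeq2, 2 by limma voom and 1 to 4 without 1 library at a time. CKO against WT was called at 0 h for 7 of the 31 (6 higher and 1 lower), against 7.48% of all genes. Scd2, a fatty acid desaturase, read 50.4, 46.6 and 45.8 CPM in WT and 88.3, 93.8 and 83.2 CPM in CKO at 0 h, and 1614, 1612 and 1541 CPM in WT and 1726, 1539 and 1579 CPM in CKO at 48 h. The 0 h groups did not overlap, the 48 h groups did, and both genotypes reached the same range from different starts (interaction -0.87 ± 0.09, edgeR adjusted p = 3.21e-05). Cyp51, an enzyme of cholesterol synthesis, was at 42.9 ± 1.4 CPM in WT and 60.1 ± 7.33 in CKO at 0 h and at 442.4 ± 7.15 and 448.8 ± 8.18 at 48 h (interaction -0.47 ± 0.10, edgeR adjusted p = 0.0187, and 0.0604 without WT 0 h replicate 3). Dhcr7, the last enzyme of cholesterol synthesis, had an interaction of -0.50 ± 0.11 (edgeR adjusted p = 0.0277) and lost its call in 6 of 12 fits without 1 library, with an adjusted p of up to 0.0872.

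Chromatin, ion transport and kinase genes were also apart at 0 h. Phf19, an accessory subunit of Polycomb repressive complex 2, was at 2.3 ± 0.203 CPM in WT and 5.75 ± 0.654 in CKO at 0 h and at 41.5 ± 1.25 and 35.2 ± 0.686 at 48 h (interaction -1.56 ± 0.16, edgeR adjusted p = 3.5e-05). Its 48 h libraries did not overlap between the genotypes either, lower in CKO, but that difference was not called (edgeR adjusted p = 0.166).

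Slc12a2, a sodium, potassium and chloride cotransporter, was lower in unstimulated CKO cells, with 25.2, 25.5 and 22.6 CPM in WT and 9.34, 8.78 and 13.3 CPM in CKO at 0 h. At 48 h the libraries overlapped, at 46.5, 55.9 and 58.7 CPM in WT and 48.2, 47.0 and 49.0 CPM in CKO, so that CKO cells rose further (interaction 1.06 ± 0.17, edgeR adjusted p = 0.00263). Bmp2k, a protein kinase, fell in WT from 46.5 ± 4.15 to 28.0 ± 1.56 CPM and was not called in CKO, at 31.1 ± 3.68 and 34.1 ± 1.7 (interaction 0.87 ± 0.13, edgeR adjusted p = 0.0013). Tmem30a, a subunit of lipid flippases, did likewise, from 243.4 ± 15.2 to 184.8 ± 5.39 CPM in WT with 177.5 ± 6.33 and 183.1 ± 6.08 in CKO (interaction 0.44 ± 0.08, edgeR adjusted p = 0.00971). These 2 genes already stood in unstimulated CKO cells near the level that WT cells had at 48 h.

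Of 29 ATF4, serine and one-carbon genes, Slc3a2 and Ddit3 were called (6.9%, against 1.38% of all genes), both below 0, and the list's median was -0.32. At 0 h the same 2 of 29 were called higher in CKO, a share of 6.9% against 7.48% of all genes, and at 48 h 1 of 29 was called, against 4.54% of all genes. The list's median genotype difference was 0.10 log2 at 0 h and -0.18 at 48 h. Ddit3, which encodes the stress factor CHOP, lost its interaction call in 8 of 12 fits without 1 library, with an adjusted p of up to 0.0939. Slc3a2, the heavy chain of large neutral amino acid transporters, was at 205.8 ± 18.9 CPM in WT and 279.9 ± 11.9 in CKO at 0 h and at 185.3 ± 17.9 and 172.1 ± 7.61 at 48 h (interaction -0.55 ± 0.11, edgeR adjusted p = 0.0102). Trp53inp1, a p53 target, was at 383.3 ± 18.0 CPM in WT and 541.5 ± 50.4 in CKO at 0 h and at 453.9 ± 18.4 and 400 ± 37.9 at 48 h, so that it rose in WT and fell in CKO (interaction -0.68 ± 0.11, edgeR adjusted p = 0.00152). Pik3ip1, an inhibitor of PI3 kinase typical of resting T cells, fell from 153.8 ± 2.12 to 17.8 ± 0.995 CPM in WT and from 211.8 ± 7.74 to 15.7 ± 3.04 in CKO (interaction -0.64 ± 0.13, edgeR adjusted p = 0.0135). Bag3, a co-chaperone, was lower in CKO at 0 h, at 10.6 ± 2.7 against 22.9 ± 2.48 CPM (interaction 1.32 ± 0.28, edgeR adjusted p = 0.0179), and lost its call without WT 48 h replicate 3, CKO 48 h replicate 1 or CKO 48 h replicate 3, with an adjusted p of up to 0.0624.

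**Figure D3:**
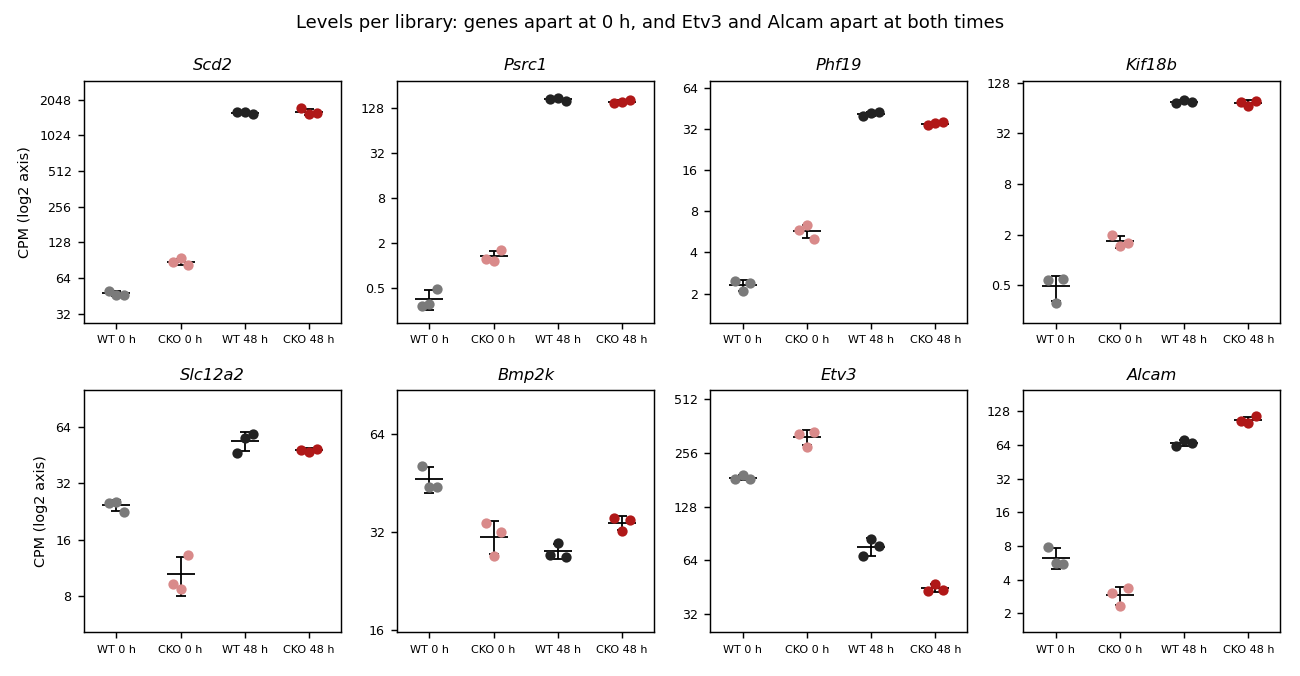
CPM per library (y axis, log2 scale) for 6 genes whose genotypes were apart at 0 h and for Etv3 and Alcam, apart at both times in opposite directions; points are libraries, bars the mean and SD of 3. Scd2, Psrc1, Phf19 and Kif18b were higher and Slc12a2 and Bmp2k lower in unstimulated CKO cells, and Etv3 and Alcam change order between 0 h and 48 h.

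Genes whose order reversed gave the smallest p-value of all. Etv3, a repressor of the ETS family, read 183.2, 193.1 and 183.4 CPM in WT and 327.6, 278.0 and 337.8 CPM in CKO at 0 h, and 67.4, 84.8 and 77.1 CPM in WT and 43.1, 47.4 and 43.7 CPM in CKO at 48 h. CKO libraries were all above WT at 0 h and all below at 48 h. The interaction was -1.53 ± 0.12 (edgeR adjusted p = 1.2e-06), with CKO at 169% of WT at 0 h and 58.5% at 48 h.

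Alcam, which encodes the adhesion molecule CD166, showed the reverse order, with 7.79, 5.57 and 5.47 CPM in WT and 3.01, 2.3 and 3.35 CPM in CKO at 0 h, and 62.3, 70.5 and 66.0 CPM in WT and 103.8, 99.9 and 115.7 CPM in CKO at 48 h (interaction 1.80 ± 0.19, edgeR adjusted p = 3.5e-05). CKO cells went from 46.1% to 161% of the WT level. Cd6, which encodes a T-cell receptor for ALCAM, was apart at 48 h, at 249 ± 21.3 CPM in WT and 317.6 ± 10.2 in CKO (interaction 0.40 ± 0.09, edgeR adjusted p = 0.0295), and lost its call in 8 of 12 fits without 1 library, with an adjusted p of up to 0.134. Both belong to the list of 30 adhesion and homing genes, of which 3 were called (10%, against 1.38% of all genes).

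A further 4 genes of this group were named by the size of their p-value in each direction. Aff3, a nuclear protein of transcription elongation complexes, fell in WT from 109.2 ± 2.94 to 68.0 ± 7.45 CPM and was not called in CKO, at 92.6 ± 1.52 and 99.6 ± 3.1 (interaction 0.79 ± 0.10, edgeR adjusted p = 0.000233). Snapc3, a subunit of the complex that transcribes small nuclear RNA genes, fell from 40.6 ± 4.09 to 28.1 ± 2.35 CPM in WT and rose from 29.3 ± 3.55 to 39.5 ± 2.25 in CKO (interaction 0.96 ± 0.14, edgeR adjusted p = 0.000926). Trpm1, a cation channel, and Ephx1, an epoxide hydrolase, fell in CKO and were not called in WT, with interactions of -1.52 ± 0.22 and -0.70 ± 0.11 (edgeR adjusted p = 0.000926 and 0.00231). Of the 18 genes of this group, the interaction was above 0 for 9 and below 0 for 9.

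Where the genotypes were apart at both times in the same direction, the difference was larger at 0 h for 14 genes and larger at 48 h for 8, Senp1 among the latter. Ddr1, a collagen receptor kinase, read 0.344, 0.304 and 0.178 CPM in WT and 11.9, 10.4 and 10.3 CPM in CKO at 0 h, and 3.85, 3.21 and 2.95 CPM in WT and 17.3, 15.8 and 17.4 CPM in CKO at 48 h. It was higher in every CKO library at both times, and the gap narrowed with stimulation as WT rose further (interaction -2.93 ± 0.32, edgeR adjusted p = 4.08e-05). On raw counts summed over 3 libraries, WT had 15 at 0 h and 200 at 48 h and CKO 535 and 938.

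The next genes were chosen after their values were seen. Wdfy1, a FYVE and WD-repeat protein of endosomes, read 21.4, 21.8 and 19.9 CPM in WT and 14.8, 14.4 and 16.5 CPM in CKO at 0 h, and 52.3, 42.3 and 41.2 CPM in WT and 13.9, 11.3 and 11.8 CPM in CKO at 48 h. It rose in WT and fell in CKO (interaction -1.41 ± 0.16, edgeR adjusted p = 7.5e-05). All CKO libraries lay below all WT libraries of the same time.

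Of these 22 genes 6, or 27.3%, lie on chromosome 9, while 5.57% of the genes tested do. Mst1, which encodes a secreted factor related to hepatocyte growth factor, and Abhd14b are among them. Chromosome 9 held 16.7% of the genes apart at both times in opposite directions (3 of 18), 5.83% of the genes apart at 0 h and 5.56% of those apart at 48 h. Over all called genes it did not stand out. The interaction was called for 2.14% of the genes tested on chromosome 9 (19 of 887) and 2.43% on chromosome 4 (22 of 906), against 1.38% of all genes. Mst1 had raw counts of 377 in WT and 13 in CKO at 0 h and 131 in WT and 39 in CKO at 48 h, each summed over 3 libraries (interaction 3.04 ± 0.56, edgeR adjusted p = 0.00731, and 0.0602 under limma voom). Abhd14b had 179 and 6 at 0 h and 135 and 49 at 48 h (interaction 3.34 ± 0.54, edgeR adjusted p = 0.00216). What these genes share beyond their chromosome was not tested.

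Low-count genes best known from the nervous system formed a further pattern, again chosen after the values were seen. Mobp and Mag encode myelin proteins, Nefm and Nefl neurofilament chains, Sparcl1 a secreted protein of astrocytes, and Syt1, Gria2 and Dlg2 synaptic proteins. All 8 had the interaction called. Mobp had raw counts of 5, 4 and 3 in WT and 54, 58 and 47 in CKO at 0 h, and 29, 29 and 27 in WT and 5, 5 and 2 in CKO at 48 h (interaction -6.50 ± 0.58, edgeR adjusted p = 7.17e-06). Nefm had 2, 2 and 1 in WT and 13, 18 and 19 in CKO at 0 h, and 12, 10 and 20 in WT and 0, 1 and 1 in CKO at 48 h (edgeR adjusted p = 0.000336). Syt1 ran the other way, with 18, 24 and 19 in WT and 2, 2 and 3 in CKO at 0 h, and 1, 2 and 0 in WT and 6, 9 and 15 in CKO at 48 h (edgeR adjusted p = 0.00152). Libraries of a group were less alike in other genes, as in Nefl with 12, 5 and 19 counts in CKO at 0 h and Mag with 2, 7 and 12 in WT at 48 h.

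Interactions were below 0 for Mobp, Mag, Nefm, Nefl and Sparcl1 and above 0 for Syt1, Gria2 and Dlg2. Mobp, Nefm and Syt1 kept their call in each of the 12 fits without 1 library. The calls of Mag and Sparcl1 were kept in 8 of them, of Nefl in 7, of Dlg2 in 3 and of Gria2 in 2. No list of cell-type markers held these genes, and the source of this RNA was not tested.

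**Figure D4:**
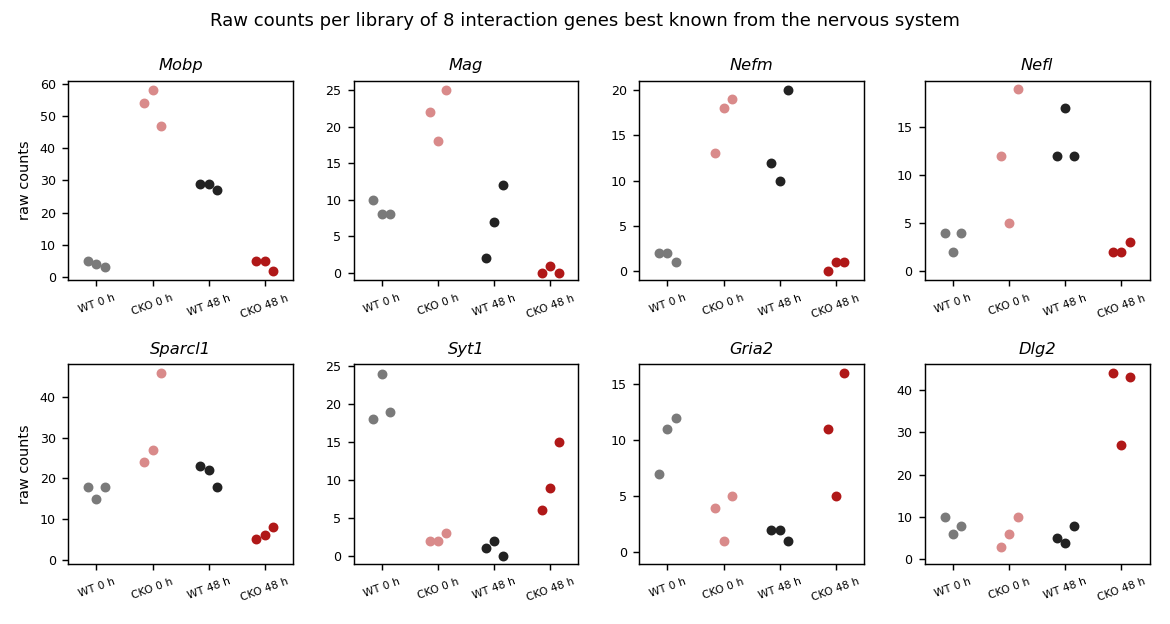
Raw counts per library (y axis, linear) for 8 genes best known from the nervous system, in the 4 groups; each point is 1 library. In Mobp, Mag, Nefm, Nefl and Sparcl1, CKO at 0 h lies above WT at 0 h and CKO at 48 h below WT at 48 h in group mean, and in Syt1 and Gria2 both orders are reversed. Mobp goes from 47 to 58 counts in CKO at 0 h to 2 to 5 in CKO at 48 h.

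Of the lists of pathway and cell-type genes, 36 of 915 distinct genes tested had the interaction called, and 184 of the 220 genes were in no list. The members and lists are read against 1.38% of all genes. Of 22 SUMO pathway genes 3 were called, all below 0, Senp1 and Sp100 among them. Sp100, a nuclear body protein that carries SUMO, fell from 597 ± 28.1 to 402.3 ± 25.6 CPM in WT and from 612.7 ± 26.2 to 312.7 ± 22.3 in CKO (interaction -0.40 ± 0.09, edgeR adjusted p = 0.0343, lost in 6 of 12 fits without 1 library, up to 0.102). The median of the list was -0.03.

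HIF-1 and hypoxia genes had 3 of 23 called: Pdk1, Plin2 and Vegfa, with a list median of -0.19. Plin2, a coat protein of lipid droplets, rose from 6.07 ± 1.11 to 24.1 ± 6.5 CPM in WT and from 5.06 ± 0.712 to 46.8 ± 1.75 in CKO (interaction 1.22 ± 0.25, edgeR adjusted p = 0.0195, lost in 4 of 12 fits, up to 0.0685). Vegfa, an angiogenic factor, read 4.98, 7.95 and 9.33 CPM in WT and 20.8, 15.5 and 30.3 CPM in CKO at 0 h and 54.4 ± 5.19 and 41.2 ± 5.81 at 48 h (interaction -1.98 ± 0.36, edgeR adjusted p = 0.032). Its call was lost in 7 of 12 fits, up to 0.0912, and without WT replicate 1 at both times (0.0887). Of 22 glycolysis genes, Pfkp, a phosphofructokinase, was called (interaction -0.43 ± 0.10, edgeR adjusted p = 0.0371, lost in 7 of 12 fits, up to 0.124). The 3 called hypoxia genes thus split between 48 h (Pdk1 and Plin2, in opposite directions) and 0 h (Vegfa).

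Of 30 transcription factors of effector and memory cells, Stat4 (interaction 0.42 ± 0.10, edgeR adjusted p = 0.0398) and Ikzf3 (-0.44 ± 0.11, edgeR adjusted p = 0.0454) were called (6.67%, 4 by DESeq2, 0 by limma voom and 0 to 3 without 1 library), both at 48 h, and they lost their calls in 10 and 9 of 12 fits without 1 library, with adjusted p of up to 0.166 and 0.143. Ikzf3 also missed the threshold with median-of-ratios size factors (0.0508). In the p53 list Perp, a membrane protein, was the second called of 26, at 18.3 ± 4.53 CPM in WT and 43.1 ± 1.07 in CKO at 48 h (interaction 1.34 ± 0.28, edgeR adjusted p = 0.0177, lost in 5 of 12 fits, up to 0.0791). Herpud1, of the endoplasmic reticulum stress response, was called beside Bag3 among 28 chaperone genes. Among interferon gamma and MHC class I genes Gbp6, a guanylate-binding protein, was the 1 call of 35, higher in unstimulated CKO cells at 113.3 ± 9.99 against 63.0 ± 11.3 CPM (interaction -0.97 ± 0.17, edgeR adjusted p = 0.0135, and 0.0756 without WT replicate 1 at both times). Sh2d2a, a T-cell adaptor, was the 1 call of 32 T-cell receptor signalling genes (interaction -0.47 ± 0.11, edgeR adjusted p = 0.0329, lost in 6 of 12 fits, up to 0.0942).

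By edgeR no member was called among 24 cytotoxic genes (3 at an unadjusted p under 0.05, 1 by DESeq2, 0 by limma voom), 23 inhibitory receptors (5, 2 and 0), 39 cytokine receptors (12, 4 and 0), 20 immediate early genes (4, 0 and 0), 48 oxidative phosphorylation genes (5, 0 and 0), 13 mitochondrial mRNAs (1, 0 and 0), 31 ribosome biogenesis genes (1, 0 and 0), 28 antioxidant and sirtuin genes (2, 0 and 0) and 24 ion channels (6, 0 and 0). The nearest members were Gzmm, granzyme M (interaction 1.65 ± 0.41, edgeR adjusted p = 0.0529), and Havcr2, the receptor TIM-3 (2.13 ± 0.56, 0.0706). Gzmm read 0.841 ± 0.0976 CPM in WT and 1.47 ± 0.212 in CKO at 48 h, and Havcr2 0.621 ± 0.238 and 2.05 ± 0.412, so both rest on few counts. Type I interferon genes had no call among 35 (9 at an unadjusted p under 0.05, 5 by DESeq2, 1 by limma voom), with a median interaction of -0.36 and a median genotype difference of -0.08 at 0 h and -0.50 at 48 h. Their nearest member was Ifi206, at 98.8 ± 7.72 CPM in WT and 54.6 ± 14.4 in CKO at 48 h (interaction -0.85 ± 0.20, edgeR adjusted p = 0.0787).

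The next 2 genes are also expressed by other cell types, whose marker sums are given beside them. H2-DMb1, an MHC class II chaperone of antigen-presenting cells, read 20.2, 11.5 and 13.7 CPM in WT and 12.4, 9.02 and 8.53 CPM in CKO at 0 h, and 1.77, 0.789 and 0.953 in WT and 3.47, 3.62 and 1.87 in CKO at 48 h (interaction 1.95 ± 0.44, edgeR adjusted p = 0.0371, lost in 7 of 12 fits, up to 0.128). The 20 B-cell markers summed to 2535 ± 971 CPM in WT and 1512 ± 128 in CKO at 0 h and to 460.3 ± 82.0 and 431.5 ± 21.8 at 48 h, with a median interaction of 0.88. At 0 h H2-DMb1 and the B-cell sum were both lower in CKO in group mean. At 48 h H2-DMb1 was higher in CKO, and the ranges of the B-cell sum overlapped. The interaction was called for none of the 20 (2 at an unadjusted p under 0.05, 0 by DESeq2 and by limma voom), and for 6 without WT replicate 1 at both times. Klra7, an inhibitory receptor of natural killer cells and some T cells, fell from 9.64 ± 0.983 to 1.98 ± 0.423 CPM in WT and from 13.5 ± 4.07 to 0.929 ± 0.0725 in CKO (interaction -1.56 ± 0.36, edgeR adjusted p = 0.0335, lost in 8 of 12 fits, up to 0.0915). It was the 1 call among 21 markers of natural killer cells and innate-like T lymphocytes, whose sum was 520.9 ± 45.2 CPM in WT and 582.9 ± 74.6 in CKO at 0 h and 73.0 ± 2.45 and 91.1 ± 3.53 at 48 h. At 0 h the sum and Klra7 were both higher in CKO in group mean, and at 48 h the sum was higher and Klra7 lower. The part of these cells in the calls of H2-DMb1 and Klra7 was not tested. Markers of CD4 and regulatory T cells, myeloid cells, neutrophils, and erythroid cells and platelets had no interaction called (4 of 10, 1 of 18, 0 of 7 and 0 of 9 at an unadjusted p under 0.05; 2, 1, 0 and 0 by DESeq2; 0 by limma voom in each). At 0 h the myeloid sum was 407.8 to 541.8 CPM in WT and 577.3 to 661.8 in CKO. The CD4 and regulatory T-cell sum was 185.9 to 219.4 CPM in WT and 229.3 to 231.1 in CKO. The erythroid and platelet sum ran the other way, at 38.88 to 57.32 CPM in WT and 25.85 to 36.87 in CKO. Neutrophil sums overlapped. The part of these cells in the calls was not tested.

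**Figure D5:**
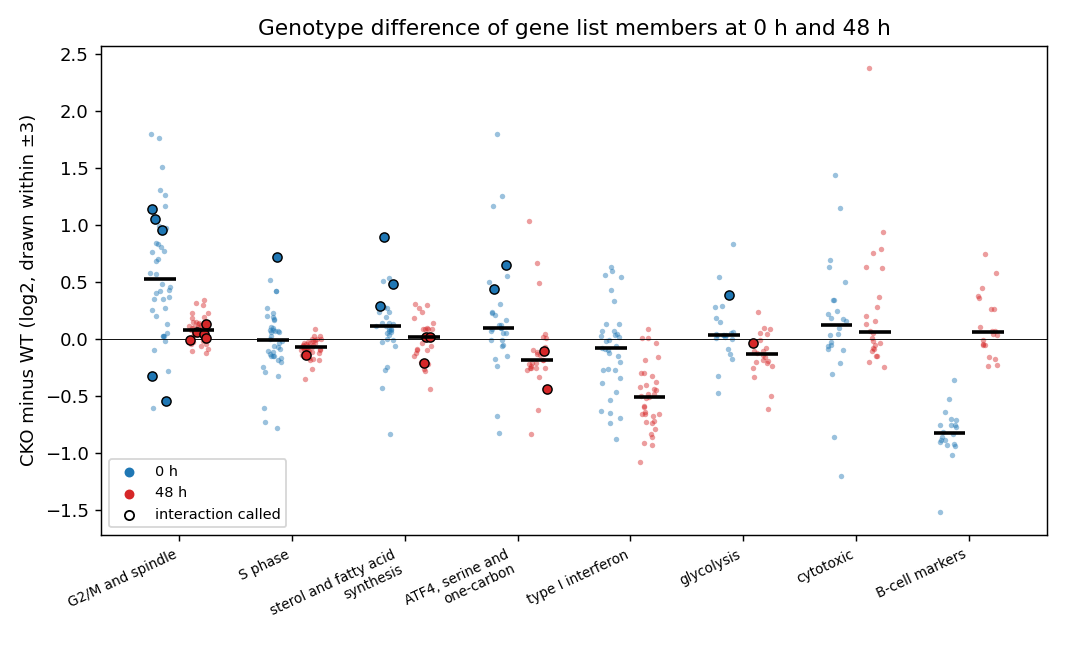
Genotype difference (CKO minus WT, log2, y axis) of the members of 8 gene lists at 0 h (blue) and 48 h (red); each point is a gene, ringed where its interaction was called, and bars are list medians. The G2/M members spread upward at 0 h (median 0.53) and gather near 0 at 48 h (0.08), type I interferon members lie lower at 48 h (-0.50) than at 0 h (-0.08), and B-cell markers lie lower at 0 h (-0.82) than at 48 h (0.06).

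The number of calls depended on single libraries. Leaving out 1 library at a time gave 115 to 330 called genes, with 115 without CKO 48 h replicate 3, 138 without CKO 0 h replicate 3 and 330 without WT 48 h replicate 1. All 220 genes kept the sign of their interaction in these 12 fits, and 95 of them kept their call in each. The 220 were chosen on all 12 libraries, most of which each fit reuses, so a kept sign adds little support to a call. Limma voom, besides the genes given above, did not call Plin2 (adjusted p = 0.0722), Perp (0.14), Dhcr7 (0.0542), Klra7 (0.241), H2-DMb1 (0.122), Stat4 (0.0559), Ikzf3 (0.0692) and Fam221a (0.0984). Without WT replicate 1 at both times Inhba (0.118) and Klra7 (0.0767) lost their calls.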

How the data were processed

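Deposited values were raw counts per Ensembl gene ID, whole numbers made by the authors, for 12 libraries. Per the labels' protocols, TRIzol was used for RNA and a TruSeq Stranded mRNA kit for the libraries. Cutadapt, HISAT2 2.2.1, DESeq2 and the build GRCm39 are named per the submitters' processing notes, without role or order. As for the counting program, annotation and strand setting, these are not given in the sources used; overlapping genes and near-identical copies may share reads.

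Counts were scaled with TMM, filtered with filterByExpr and fitted with edgeR 4.0.16 in R 4.3.3 (robust quasi-likelihood, 1 mean per group, 8 residual degrees of freedom). The common biological coefficient of variation was 0.0999. Log2 values carry their SE, and CPM values their SD over 3 libraries. Symbols were matched by ID for 52073 IDs; IDs without one held 0.249% of counts. Chromosomes came from a GRCm38 annotation. DESeq2 1.42.0 and limma 3.58.1 were alternatives, and Python 3.11.15 drew the figures.

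The members and the 38 gene lists (942 of 945 genes matched) were chosen with earlier results of these data known. Genes named are Senp1; per direction the 10 protein-coding genes of largest interaction with at least 5 CPM in the highest group and 10 counts in each; per group (apart at 0 h, at 48 h, or both in opposite directions) and direction the 4 of smallest p with at least 10 CPM; up to 4 called members per list, or the 1 of smallest p where none was called; and up to 4 low-count genes per direction. Some genes that this rule takes are not reported here. Others are said to be chosen after their values were seen. On simulated counts the interaction test recovered 24 of 50 genes changed 1.5-fold, 86 of 100 changed 2-fold and 48 of 50 changed 3-fold, with 7 false calls among 15935 genes. The changed genes all had a mean above 5 CPM, and libraries were drawn independently with the fitted spread. These shares therefore do not describe genes of lower level or paired libraries. Replicates of a group differed beyond counting noise.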

Additional observations from a re-analysis of the deposited data

Results flagged for a closer look

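The response to stimulation differed between the genotypes, by the test of the difference itself, for 220 genes. For 7 of the genes taken by the naming rule the 2 responses were called in opposite directions, as they were for Wdfy1, Mobp, Nefm, Nefl, Syt1 and Gria2, which were chosen after their values were seen. Hadhb (interaction -0.92), Tceanc2 (-1.19), Trp53inp1 (-0.68), Herpud1 (-0.68) and Fam221a (-1.71) rose in WT and fell in CKO, while Snapc3 (0.96) and Mst1 (3.04) fell in WT and rose in CKO. The edgeR adjusted p of the interaction was 2.03e-05 for Hadhb, 0.000113 for Tceanc2, 0.00152 for Trp53inp1, 0.0224 for Herpud1, 0.032 for Fam221a, 0.000926 for Snapc3 and 0.00731 for Mst1. Herpud1 lost its call in 6 and Fam221a in 10 of the 12 fits that each left out 1 library, with adjusted p of up to 0.0693 and 0.106. Fam221a read 5.59, 2.97 and 8.29 CPM in CKO at 0 h and 2.18, 2.48 and 2.62 CPM in WT, a wide spread in 1 group.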

How the results depend on the processing

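All 220 genes kept the sign of their interaction under median-of-ratios size factors, library totals, no count filter, DESeq2, limma voom, thinning, both replicate blocks and each omission of a library. These settings reuse the counts on which the 220 were chosen, so a kept sign adds little support to a call. Counts are given as all called genes, above 0, below 0, then apart at 0 h, at 48 h, at both times in opposite directions, at both times in the same direction and at neither time, then responses larger in CKO, smaller in CKO, opposite, and called in 1 genotype. With no count filter these were 576, 223, 353, 260, 198, 45, 38, 35, 203, 206 and, in 1 genotype, 137. With a log2 interaction of at least 1 they were 82, 42, 40, 32, 28, 9, 12, 1, 20, 22, 15 and 25, and at an adjusted p under 0.01 78, 27, 51, 30, 26, 7, 9, and then 20, 23, 11 and 24. DESeq2 gave 418, 200, 218, 200, 130, 32 at neither time, 146, 138 and 114 in 1 genotype. Limma voom called 168 genes, 152 of them among the 220, with 61 apart at 0 h, 3 at neither time and 36 smaller responses in CKO. Without WT replicate 1 at both times there were 368, 227 below 0, 181 apart at 0 h, 23 at neither time, and 126 larger and 133 smaller responses. Genes apart at neither time numbered 2 with a stricter filter and 10 after thinning to the smallest library. Placing genes by a 2-fold ratio of the genotype differences gave 60 in the opposite and 3 in the same-direction group. Of the 60, 24 were apart at 0 h, 14 at 48 h, 17 in the opposite group and 5 at neither time by the calls. Other counts under these settings stayed within 1.5 times.

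In the main fit same-numbered libraries were taken to share only a number, since no study method names a pairing. Deviations from the group mean correlated at -0.011 to 0.162 over 18 same-numbered pairs, within and across genotypes, and at -0.155 to 0.035 over 36 pairs of different number. Within a genotype the 6 same-numbered pairs reached 0.042 to 0.162, each above all pairs of different number, a hint of pairing from the data and not the design. A replicate block gave 281 called genes and 30 in the opposite group, and a replicate block within genotype, which leaves no genotype contrast to test, gave 350, with 175 above 0 and 125 smaller responses. Kif11 (adjusted p = 0.0535) and Vegfa (0.0512) lost their calls with the first, Vegfa (0.14) and Asah2 (0.0515) with the second.

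Without 1 library the ranges were 115 to 330 called, 43 to 123 above 0, 72 to 207 below 0, 47 to 166 apart at 0 h, 35 to 98 at 48 h, 8 to 22 opposite, 13 to 26 same direction, 4 to 18 neither, 33 to 129 larger, 33 to 94 smaller, 15 to 31 opposite responses and 33 to 76 in 1 genotype. The interaction of Hba-a2, never called, was above 0 under limma voom (0.674), without WT 48 h replicate 1 (1.431; -1.656 to 1.431 over the omissions of 1 library) and without WT replicate 1 at both times (1.205). Of 68 named called genes DESeq2 kept 68 and limma voom 47. The cause of these shifts was not tested. Genes under about 1 CPM in a group rest on few counts.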
